A study of Mus musculus with 6 samples.

Results

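The integrin alpha chains described here are the products of 10 mouse genes, Itga1, Itga2, Itga3, Itga4, Itga5, Itga6, Itga7, Itga8, Itga11 and Itgav. They were chosen by name, through the GENCODE annotation of the Ensembl gene identifiers, from the 56953 gene rows of the series. The series holds bulk RNA-seq data of 6 libraries from MEFs, mouse embryonic fibroblasts kept as cultures, and asks how the loss of Gαq, the G protein subunit that couples many receptors to phospholipase C beta, changes gene expression in these cells. The 3 WT libraries came from wild-type MEFs. The 3 libraries labelled GαqKO came from MEFs that the methods list as Gαq/11-Knock-Out, that is, as made to lack both Gαq (gene Gnaq) and the related Gα11 (gene Gna11). Both kinds of MEFs were supplied by the same laboratory and grown in DMEM with fetal bovine serum and antibiotics. No drug or ligand is named for these libraries, and the RNA-seq methods give no confluence or time in culture. The age of the embryos was not given in the sources used here. The design text calls the libraries biological replicates, but no label ties them to separate embryos or lines, so the p-values measure the spread between these libraries, and any difference between the lines other than the knockout cannot be told apart from it.

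An integrin is a pair of one alpha and one beta chain that spans the cell membrane and joins the extracellular matrix to the actin cytoskeleton. The alpha chain largely sets what the pair binds. Chains of the collagen class (Itga1, Itga2, Itga11) and of the laminin class (Itga3, Itga6, Itga7) recognise those matrix proteins, chains of the RGD class (Itga5, Itga8, Itgav) bind the arginine-glycine-aspartate stretch of fibronectin, vitronectin, nephronectin and latent TGF-β, and the α4 chain (Itga4) binds VCAM-1 and a spliced stretch of fibronectin. In fibroblasts these receptors carry adhesion, traction and matrix assembly.

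The deposited values, called normalized counts here, are taken as read counts per gene divided by a size factor for each library. The reads recovered from them ranged from 9853000 to 12229175 per library in 5 libraries. Those of GαqKO replicate 3 were not used, since its values did not pass the check of this unit. Gna11 fell from 2123 to 2180 normalized counts in the WT libraries to 419 to 472 in the libraries labelled GαqKO, and the log2 fold change was -2.25 (SE 0.0571). Gnaq did not fall. It ranged from 1660.2 to 1747 in the WT libraries and from 1888 to 1960 in the libraries labelled GαqKO, and the log2 fold change was 0.19 (SE 0.0447, adjusted p = 0.00212, limma with Benjamini-Hochberg adjustment), which goes against the label at the level of transcripts. A count over the whole gene cannot show whether a part of it is deleted. The fibroblast markers split as well. In the libraries labelled GαqKO 5 of the 11 tested were higher and 6 lower, against 31.8% higher and 34.1% lower of all genes tested. In WT, Thy1 was near 0 (mean 0.696 normalized counts, against 64.9 in the libraries labelled GαqKO), Lum was listed at 0 (against 2.98), and Pdgfra (19.6, against 2320) and Dcn (32.1, against 1663) were low. Vim (41780, against 33510), Col1a1 (16670, against 5774), Fn1 (11830, against 7117) and Pdgfrb (892, against 1046) were abundant in both groups. The epithelial markers Krt14 (258 against 1.11 normalized counts) and Cdh1 (238 against 7.96) were found in WT. The 6 epithelial markers summed to 515 to 541 normalized counts in WT and to 10 to 23.2 in the libraries labelled GαqKO. The 6 smooth muscle and pericyte markers summed to 670 to 837 in WT and to 301 to 336 in the libraries labelled GαqKO. Acta2 alone (715 against 266) made up nearly all of that sum, and Notch3 (29.2 against 33.6) was not called. In bulk libraries, fewer cells of a type and less RNA per cell cannot be told apart, and the part of these markers in the results below was not tested.

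The alpha chains changed in both directions, and Itga7 of the laminin class had the largest fitted change of the 8 that could be tested. It fell to 2.52% of its WT level, Itga6 rose to 2.72 times its WT level, Itgav fell to 48.6% and Itga5 to 57.4%. Itga3, the most abundant chain per kilobase of annotated exon, differed by a ratio of 1.11. Itga2 and Itga8 were higher and Itga11 lower at levels of a few to 30 normalized counts, and Itga1 and Itga4 were too low to test. The comparison was a limma fit on log2(normalized count + 1) over the 14096 genes that reached 10 normalized counts in 3 or more libraries, and a gene was called at a Benjamini-Hochberg adjusted p under 0.05. On that scale the added 1 makes the fitted fold changes of low genes smaller than a smaller added value would. Of the 10 members 8 were tested, and 4 were called higher (Itga2, Itga3, Itga6, Itga8) and 4 lower (Itga5, Itga7, Itga11, Itgav). Over all genes tested 31.8% were called higher and 34.1% lower, so that a call by itself was common in this comparison. With a log2 fold change over 1 or under -1 as well, called past the fold here, 3 members were higher (Itga2, Itga6, Itga8) against 10.2% of all genes tested, and 3 were lower (Itga7, Itga11, Itgav) against 10.5%. Itga2 and Itga8 passed the filter through the libraries labelled GαqKO alone, and Itga11 through the 3 WT libraries and 1 labelled GαqKO, so these 3 could hardly enter the fit without differing, and the counts of members are given as a description.

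**Figure D1:**
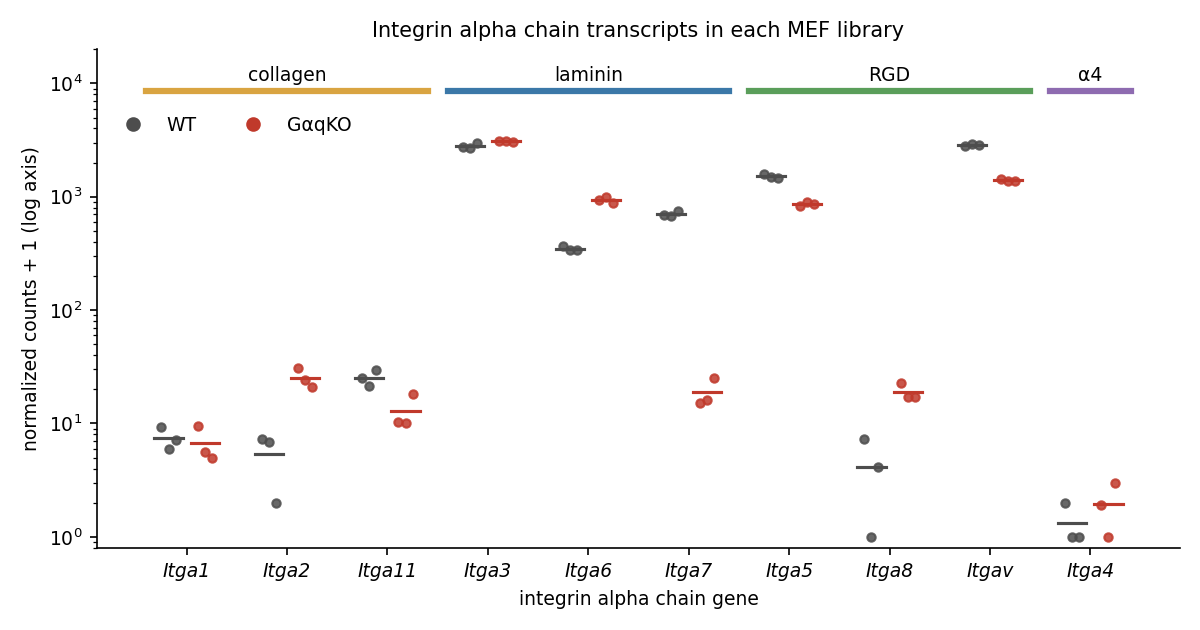
Normalized counts + 1 (log axis) of the 10 alpha chain genes in each library, grouped by ligand class, with grey points for the WT libraries, red points for the libraries labelled GαqKO and a bar at each group's mean. The groups lie apart for all members but Itga1 and Itga4, and 5 genes (Itga3, Itga6, Itga7, Itga5, Itgav) stand well above the others in at least 1 group.

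Levels of different genes were compared per kilobase of annotated exon, since a longer transcript gives more reads. This division takes the reads to fall evenly over all annotated exons, which gene counts cannot show and which was not checked. The orders, sums and shares per kilobase given here and below rest on it. In WT the order was Itga3 with 479.5 ± 24.2 (SD, n = 3) normalized counts per kilobase, Itga5 with 284 ± 12.7, Itgav with 233 ± 3.23, Itga7 with 85.1 ± 4.22, Itga6 with 30.5 ± 1.37 and Itga11 with 3.94 ± 0.659. The libraries of these neighbours did not overlap. Itga2 (0.613), Itga1 (0.302) and Itga8 (0.288) followed per kilobase in WT with overlapping libraries, and Itga4 (0.0208) overlapped with Itga8. In the libraries labelled GαqKO the first 3 places were the same, with Itga3 at 533 ± 5.61, Itga5 at 163 ± 6.44 and Itgav at 113 ± 1.86 per kilobase. Itga6 came next with 82.9 ± 5.06, about the level that Itga7 had in WT. Itga2 (3.43), Itga7 (2.14), Itga11 (1.93) and Itga8 (1.66) then formed a group in which each overlapped with the next, above Itga1 (0.267) and Itga4 (0.0588). Itga7 thus moved from the fourth place per kilobase to a place among the rare chains, and Itga6 took the fourth place. The order of the abundant chains rests on the exon lengths used. By undivided normalized counts, WT held Itgav (2868) and Itga3 (2792) with overlapping libraries, then Itga5 (1509). In the libraries labelled GαqKO, Itga3 (3104) was followed by Itgav (1394), then by Itga6 (944) and Itga5 (865.5), whose libraries overlapped.

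The start regions of the 3 chains most abundant per kilobase are shown because these genes make up most of the alpha chain RNA in both groups. They differ in direction, with Itga3 slightly higher and Itga5 and Itgav lower. Each line gives the 250 bases before the start of transcription from RefSeq, read 5′ to 3′ on the gene's strand, with matches to the GC box GGGCGG (either strand) in capitals. The positions are in the build of that table, GRCm38.p6, which is not the GRCm39 of the deposited files. The Itga3 stretch is chr11:95076715-95076964 (minus strand), the Itga5 stretch chr15:103366792-103367041 (minus strand) and the Itgav stretch chr2:83724147-83724396 (plus strand).
Itga3: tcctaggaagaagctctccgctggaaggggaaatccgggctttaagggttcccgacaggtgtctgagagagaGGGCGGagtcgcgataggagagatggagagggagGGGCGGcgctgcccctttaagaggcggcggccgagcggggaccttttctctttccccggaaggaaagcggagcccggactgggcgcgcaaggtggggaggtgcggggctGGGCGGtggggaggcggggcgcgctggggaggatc
Itga5: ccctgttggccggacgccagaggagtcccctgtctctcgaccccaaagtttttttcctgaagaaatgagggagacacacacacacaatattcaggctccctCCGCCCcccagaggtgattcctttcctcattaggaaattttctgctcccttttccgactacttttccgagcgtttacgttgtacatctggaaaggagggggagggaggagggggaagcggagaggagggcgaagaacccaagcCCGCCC
Itgav: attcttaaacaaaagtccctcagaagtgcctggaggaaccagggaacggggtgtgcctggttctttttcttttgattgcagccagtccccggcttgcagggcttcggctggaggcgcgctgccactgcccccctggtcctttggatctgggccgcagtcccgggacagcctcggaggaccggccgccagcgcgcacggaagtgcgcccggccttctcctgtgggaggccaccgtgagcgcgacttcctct
These letters hold 3 GC boxes for Itga3, 2 for Itga5 and 0 for Itgav, with 67.6%, 55.6% and 64.4% G and C against a median of 52.4% over all promoters of the table. The table held 8 of the 10 members in 9 entries, Itga3 having 2, and no entry was found for Itga6 and Itga7. The Itga3 entry that is not shown had 1 GC box and 50.8% G and C, under that median. A GC box was present in 4 of the 9 entries (both of Itga3, Itga5, Itga4), against 32.7% of all 32851 promoters. The SMAD motif CAGACA, read on both strands like the others, was found in 3 entries (Itga2, Itga3, Itga4), against 17.1% of all. The AP-1 motif TGANTCA, the TEAD motif CATTCC and the CArG box of serum response factor had 0 matches among the members' entries, against 6.7%, 12.6% and 1.5% of all promoters. A match or its absence describes these letters and not the binding of a factor.

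The laminin class showed 3 different behaviours in its 3 chains. Itga7 fell steeply, Itga6 rose and Itga3 stayed close to its WT level. Itga7 encodes a laminin receptor best known from muscle, where it links the fibre to its basement membrane. Its gene (ENSMUSG00000025348.11) lies on chromosome 10 at 128769621 to 128794169 (GRCm39, plus strand). It stood at 695, 676 and 744 normalized counts in WT replicates 1, 2 and 3 and at 14.1, 15.0 and 24.2 in replicates 1, 2 and 3 labelled GαqKO. Every WT library was far above every library labelled GαqKO. The means were 705 ± 35 and 17.8 ± 5.57 (SD, n = 3 each), a 39.7-fold difference, and the log2 fold change was -5.27 (SE 0.181, 95% interval -5.66 to -4.88, adjusted p = 1.65e-11). Of the exon bases of Itga7, 30.5% lie inside the spans of other genes and 3.8% on their exons. One of these is Tmt1b, named after its value was seen, which changed in the opposite direction with a log2 fold change of 3.91. The muscle markers Myod1, Myog, Myf5 and Ckm were at or near 0 in both groups, and the 6 skeletal muscle markers summed to 13.5 to 18.5 normalized counts in WT and to 15 to 24.1 in the libraries labelled GαqKO. Of the 6 smooth muscle and pericyte markers 2 were tested. Acta2, which makes up nearly all of their sum, was lower, at 715 against 266 normalized counts, and Notch3 was not called (29.2 against 33.6). The other 4 were under the filter, and the part of these markers in the result was not tested.

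Itga6 encodes the chain that binds laminin with β1 and, in epithelial hemidesmosomes, with β4. The gene (ENSMUSG00000027111.17) lies on chromosome 2 at 71575960 to 71689757 (GRCm39, plus strand). The WT libraries held 364, 341 and 335 normalized counts and the libraries labelled GαqKO 944, 1001.3 and 886. The lowest library labelled GαqKO was well above the highest WT library. The means were 347 ± 15.6 and 944 ± 57.6 (SD, n = 3 each), with a log2 fold change of 1.44 (SE 0.0678, 95% interval 1.29 to 1.59, adjusted p = 3.7e-10). Of the 6 epithelial markers only Krt14 and Cdh1 passed the filter, and both were lower in the same libraries. Krt8 (17.3 against 0.721 normalized counts) and Krt18 (14.5 against 1.01) were under the filter. Both lay lower in every library labelled GαqKO than in any WT library. Epcam and Krt5 were near 0 in both groups.

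Itga3, whose chain pairs with β1 as a receptor for laminins of epithelial and vascular basement membranes, is encoded on chromosome 11 at 94935296 to 94967682 (ENSMUSG00000001507.17, GRCm39, minus strand). It held 2742, 2682 and 2951 normalized counts in WT and 3124, 3122 and 3066 in the libraries labelled GαqKO. The groups did not overlap, but the gap between the highest WT library and the lowest of the other group was smaller than the spread within WT. The means were 2792 ± 141 and 3104 ± 32.7 (SD, n = 3 each), with a log2 fold change of 0.15 (SE 0.0454, 95% interval 0.056 to 0.252, adjusted p = 0.0086). The call was lost without WT replicate 2 (adjusted p = 0.0521) and when the prior spread was fitted without a trend (adjusted p = 0.058).

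In the RGD class both abundant chains were lower in the libraries labelled GαqKO, and the rare chain was higher. Itgav encodes αv, the chain shared by several receptors for vitronectin, fibronectin and the latent form of TGF-β. The gene (ENSMUSG00000027087.12) lies on chromosome 2 at 83554403 to 83637260 (GRCm39, plus strand). Its normalized counts were 2822, 2897 and 2885 in WT and 1419, 1389.8 and 1374 in the libraries labelled GαqKO. Both groups were tight and lay far apart. The means of 2868 ± 39.9 and 1394 ± 22.9 (SD, n = 3 each) gave a log2 fold change of -1.04 (SE 0.0423, 95% interval -1.13 to -0.949, adjusted p = 8.38e-11). Of its exon bases 30.0% lie inside the spans of other genes and 5.1% on their exons.

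Itga5 encodes the chain of the main fibronectin receptor of fibroblasts, on chromosome 15 at 103252713 to 103275270 (ENSMUSG00000000555.9, GRCm39, minus strand). It fell from 1582, 1498 and 1448 normalized counts in WT to 829, 897 and 870.1 in the libraries labelled GαqKO. No library of one group came near the other. The means were 1509 ± 67.5 and 865.5 ± 34.3 (SD, n = 3 each), with a log2 fold change of -0.80 (SE 0.0539, 95% interval -0.918 to -0.685, adjusted p = 1.56e-08), short of the fold threshold. None of its exon bases were shared, with 0.0% inside the spans of other genes.

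Itga8 encodes the α8 chain, a receptor for nephronectin in the developing kidney, on chromosome 2 at 12110900 to 12307214 (ENSMUSG00000026768.11, GRCm39, minus strand). The WT libraries held 6.3, 0 and 3.1 normalized counts and the libraries labelled GαqKO 21.6, 16.2 and 16.1. All 3 of the latter were above the WT libraries, of which replicate 2 had no read. The means were 3.11 ± 3.13 and 17.97 ± 3.15 (SD, n = 3 each), with a log2 fold change of 2.61 (SE 0.622, 95% interval 1.26 to 3.95, adjusted p = 0.00218). The fitted value moved between 1.57 and 3.22 with the pseudocount and the libraries left out, and the gene stayed rare in both groups.

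The collagen class, as listed here without Itga10, was rare throughout. Itga2 encodes a collagen receptor chain known from platelets and epithelium, on chromosome 13 at 114969617 to 115068636 (ENSMUSG00000015533.10, GRCm39, minus strand). It held 6.3, 5.8 and 1 normalized counts in WT and 30, 23.1 and 20.1 in the libraries labelled GαqKO. The groups lay apart, with the lowest WT library at a single count. The means were 4.37 ± 2.91 and 24.4 ± 5.08 (SD, n = 3 each), with a log2 fold change of 2.44 (SE 0.491, 95% interval 1.38 to 3.49, adjusted p = 0.000615). All of its exon bases (100.0%) lie inside the span of Mocs2 and 6.2% on exons of that gene, and with no strand setting given, reads of Itga2 and of Mocs2 RNA that keeps its introns cannot be told apart. Mocs2, named after its value was seen, had a log2 fold change of 0.14 (adjusted p = 0.246).

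Itga11 encodes the α11 chain, a receptor for fibrillar collagen that is typical of fibroblasts, on chromosome 9 at 62585108 to 62691617 (ENSMUSG00000032243.9, GRCm39, plus strand). It held 24.0, 20.4 and 28.5 normalized counts in WT and 9.4, 9.2 and 17.1 in the libraries labelled GαqKO. The groups did not overlap, although replicate 3 labelled GαqKO lay close to the lowest WT library. The means were 24.3 ± 4.06 and 11.9 ± 4.5 (SD, n = 3 each), with a log2 fold change of -1.01 (SE 0.332, 95% interval -1.73 to -0.294, adjusted p = 0.0159). This call did not hold without WT replicate 3 (adjusted p = 0.0642), without replicate 1 labelled GαqKO (0.0579) or replicate 2 (0.0522), without a filter (0.0503), or with DESeq2 on recovered reads (0.0679).

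Itga1, whose chain is a receptor for collagen IV, was under the filter. It lies on chromosome 13 at 115089632 to 115238677 (ENSMUSG00000042284.11, GRCm39, minus strand) and held 8.4, 4.9 and 6.1 normalized counts in WT and 8.5, 4.6 and 4.0 in the libraries labelled GαqKO. The groups overlapped, and no difference was detectable at this depth. Itga4, whose chain guides leukocytes and neural crest cells through VCAM-1 and fibronectin, held 1, 0 and 0 normalized counts in WT and 0.9, 0 and 2 in the libraries labelled GαqKO. These values are under the floor of 3 counts per library, and no fold was formed. The gene lies on chromosome 2 at 79085660 to 79163467 (ENSMUSG00000027009.19, GRCm39, plus strand).

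Summed per kilobase of exon, the 10 chains came to 1116 ± 22.3 normalized counts per kilobase in WT and to 901 ± 12.0 in the libraries labelled GαqKO (SD, n = 3 each). The difference was -215. The RGD class went from 516 ± 10.2 to 277 ± 5.04 per kilobase, a difference of -239, with a two-sided exact permutation p of 0.1, the smallest that 3 against 3 libraries allow. The laminin class summed to 595.0 ± 27.8 and 618 ± 9.62 per kilobase, and its libraries overlapped between the groups (difference 23.2, exact permutation p = 0.3). As a share of the sum, the laminin class made up 52.5%, 52.4% and 55.0% in the WT libraries and 69.0%, 68.5% and 68.3% in the libraries labelled GαqKO. The RGD class took 47.1%, 47.2% and 44.5% in WT and 30.3%, 30.9% and 31.1% in the other group. Both shares thus lay apart in all libraries, by 15.3 and -15.5 percentage points, each with an exact permutation p of 0.1 (Benjamini-Hochberg adjusted over the 4 class shares, 0.133). The collagen and α4 classes held so little of the sum that the laminin share nearly mirrors the RGD share. Their tests are therefore not independent. The collagen class was 0.435% ± 0.0327 in WT and 0.625% ± 0.0727 in the libraries labelled GαqKO (exact permutation p = 0.1). This difference of 0.19 percentage points turned to -0.111 when only exon bases outside the spans of other genes counted as length, which drops Itga2.

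The laminin class, whose sums overlapped, was made up differently in the 2 groups. Itga3 went from 80.6% to 86.2% of the laminin class per kilobase, Itga6 from 5.13% to 13.4% and Itga7 from 14.3% to 0.348%. In WT, Itga7 was above Itga6 in every library, and in the libraries labelled GαqKO Itga6 was above Itga7 in every library. Within the RGD class the make-up moved less. Itga5 held 54.9% ± 1.39 of the RGD class in WT and 58.6% ± 1.34 in the libraries labelled GαqKO, Itgav 45.0% ± 1.42 and 40.8% ± 1.23, and Itga8 stayed under 1%.

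**Figure D2:**
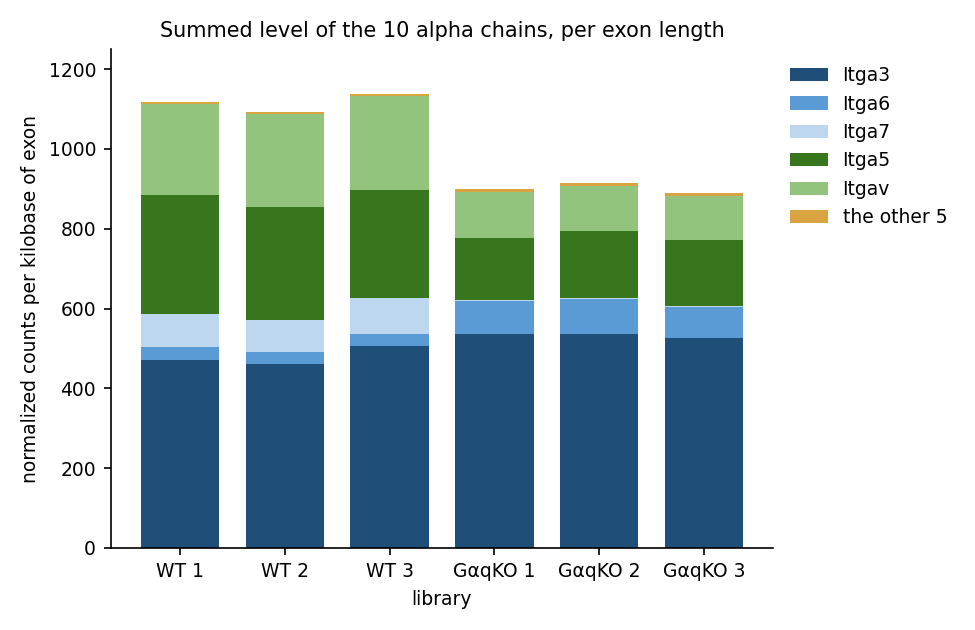
Stacked bars of the alpha chain levels in each library, in normalized counts per kilobase of exon, with the laminin class in blue, the RGD class in green and the other 5 chains together in orange. The bars reach 1093 to 1137 in the WT libraries and 890 to 914 in the libraries labelled GαqKO, the light blue of Itga7 is all but gone in the latter, and both green parts are shorter.

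The alpha chains reach the cell surface only with a beta chain, so the 8 beta chain genes were read beside them. Of 7 tested, 1 was higher, 2 were lower and 4 were not called, against 31.8% higher and 34.1% lower of all genes tested. Itgb1, a partner of the member chains, was higher in the libraries labelled GαqKO, with 12550 ± 174 normalized counts against 8254 ± 209 in WT (SD, n = 3 each). The log2 fold change was 0.60 (SE 0.0391, adjusted p = 1.04e-08). Both called falls were in chains that pair with αv, as Itgb1 also does. Itgb8, the chain of a receptor that activates latent TGF-β, held 1082, 1049 and 1069.8 normalized counts in WT and 49.8, 32.4 and 52.4 in the libraries labelled GαqKO, with a log2 fold change of -4.57 (SE 0.149, adjusted p = 9.77e-12). Itgb5, the chain of a vitronectin receptor, went from 1130 ± 23.8 to 624 ± 32.4 normalized counts (log2 fold change -0.86, SE 0.0569, adjusted p = 1.36e-08). Itgb3, which also pairs with αv, held 160 ± 25.7 and 147 ± 8.21, with a log2 fold change of -0.11 (adjusted p = 0.482) and overlapping groups. Itgb4, the hemidesmosome partner of α6, was rare in both groups, at 28.4 ± 13.2 and 33.3 ± 11.8 normalized counts (adjusted p = 0.534). Itgb2 (log2 fold change -0.47, adjusted p = 0.216) and Itgb7 (0.30, adjusted p = 0.136), chains known from leukocytes, were not called, and Itgb6 was under the filter.

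**Figure D3:**
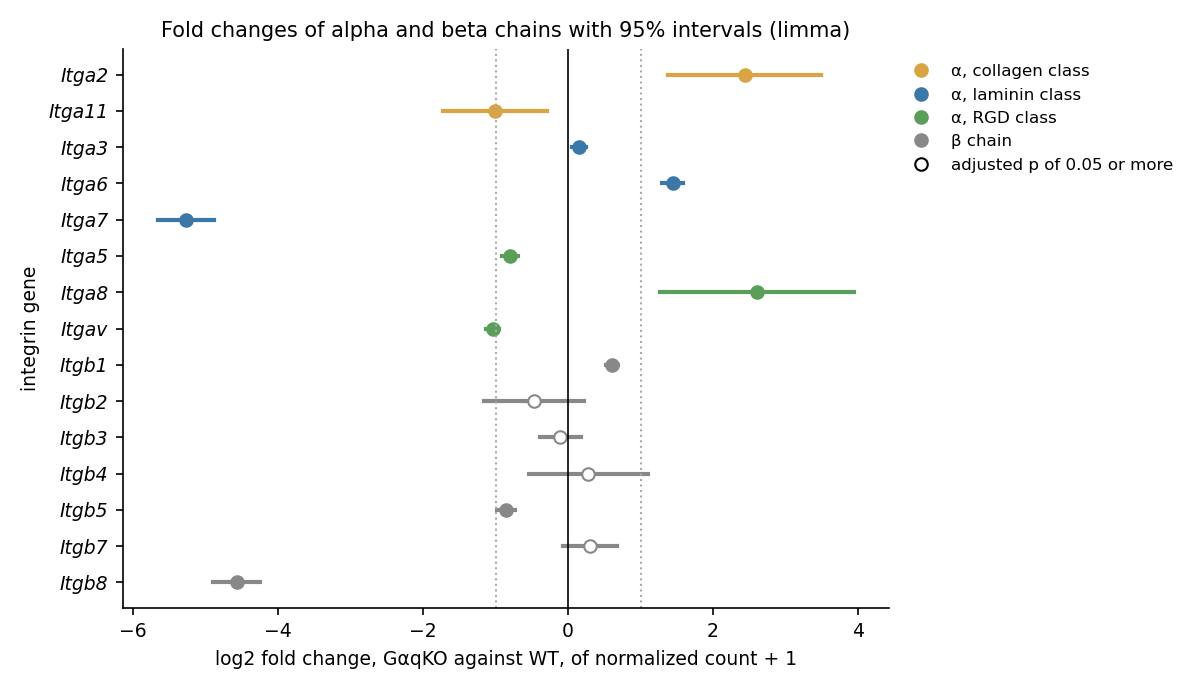
Log2 fold changes (libraries labelled GαqKO against WT, of normalized count + 1) of the 8 tested alpha chains and 7 tested beta chains with 95% intervals from limma, with open points for an adjusted p of 0.05 or more and dotted lines at -1 and 1. Itga7 and Itgb8 lie farthest to the left, at -5.27 and -4.57, and the widest alpha chain intervals belong to the rare Itga2 and Itga8.

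Of the 8 other alpha chain genes of the mouse that were listed, 3 passed the filter. Itga10, a collagen receptor chain known from cartilage, rose from 119.5 ± 23.3 to 175 ± 16.3 normalized counts (log2 fold change 0.56, adjusted p = 0.00438). It thus had more reads than any of the 3 listed collagen class chains, though 67.7% of its exon bases lie inside the spans of other genes. With all alpha chain genes in the sum, the collagen class gained 1.73 percentage points in place of 0.19. Itga2b, the platelet chain, fell from 191 ± 27.5 to 111 ± 15.2 (log2 fold change -0.78, adjusted p = 0.000313), and Itgae, the chain of an E-cadherin receptor of lymphocytes, from 125 ± 2.07 to 94.2 ± 19.6 (log2 fold change -0.42, adjusted p = 0.03). Itga9, Itgad, Itgal, Itgam and Itgax were under the filter.

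The matrix genes that the alpha chains bind were read from 4 lists, whose medians stand beside the median log2 fold change of -0.01 over all genes tested. Their counts stand beside 31.8% called higher and 34.1% called lower of all genes tested. Past the fold these shares were 10.2% and 10.5%. Of 15 collagen ligand genes 13 were tested and all 13 were lower, 6 of them past the fold, with a median log2 fold change of -0.93. Among those whose mean reached 100 normalized counts, the 2 largest falls were in Col11a1, a minor fibrillar collagen (435 ± 43.8 to 3.1 ± 0.333), and Col6a3, a chain of the beaded collagen VI (1123 ± 173 to 102 ± 7.07). Col11a1, like Lamb3 of the laminin list, passed the filter through WT alone, and Lama4 of that list through the libraries labelled GαqKO alone, so these 3 had to differ and the counts of the lists are a description. The collagen class receptors Itga2, Itga11 and Itga10 had no such common direction. Of 11 laminin chain genes 8 were tested, with 3 higher, 4 lower and 1 not called, and a median of -0.31. Lama5, the alpha chain of the basement membrane laminin that α3 and α6 integrins bind, fell from 779 ± 102 to 24.99 ± 10.5 normalized counts (log2 fold change -4.97).

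Of 15 RGD ligand genes 12 were tested, with 3 higher, 8 lower and 1 not called, and a median log2 fold change of -0.40. Over all genes tested 31.8% were called higher and 34.1% lower. Spp1 (osteopontin, bound by αv, α4, α5 and α8 integrins) held 2387, 2232 and 2017 normalized counts in WT and 32529, 32976 and 32917 in the libraries labelled GαqKO, and the log2 fold change was 3.89 (SE 0.0536, adjusted p = 3.28e-15). Of the member chains that bind it, Itgav and Itga5 were lower in the libraries labelled GαqKO, the rare Itga8 was higher and Itga4 was under the floor in both groups. Npnt (nephronectin, the ligand of α8) went the opposite way to Itga8, from 596 ± 44.6 to 50.5 ± 6.14 normalized counts (log2 fold change -3.54), and Thbs1 (thrombospondin 1) fell from 8639 ± 346 to 1244 ± 44.9 (log2 fold change -2.79). Fibronectin itself, Fn1, the ligand of α5, fell with Itga5 from 11830 ± 1310 to 7117 ± 433 normalized counts (log2 fold change -0.73, named for its place as the ligand of α5 after its value was seen). Of the 4 genes listed as α4 ligands 3 were tested. Spp1 and Fn1 are counted above, and Vcam1 rose from 559 ± 32.5 to 1962 ± 55.9 (log2 fold change 1.81) in cells with next to no Itga4.

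The 15 genes of integrin activation and linkage, among them talin (Tln1) and the kindlins, which switch the pair on from inside, changed in both directions. Of 14 tested 4 were higher, 8 lower and 2 not called, with a median log2 fold change of -0.26. Over all genes tested 31.8% were called higher and 34.1% lower. Tln1 fell to 52% of its WT level (log2 fold change -0.94, adjusted p = 2.27e-08), and it was named here, outside the rule, after its value was seen. Past the fold was 1 gene, a rise, against 10.2% higher and 10.5% lower past the fold of all genes tested. This gene, Apbb1ip, encodes RIAM, the adaptor that brings talin to the membrane with Rap1. It held 66.8, 54.4 and 57.0 normalized counts in WT and 499, 594 and 519.6 in the libraries labelled GαqKO, and the log2 fold change was 3.16 (SE 0.119, adjusted p = 3.9e-11).

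**Figure D4:**
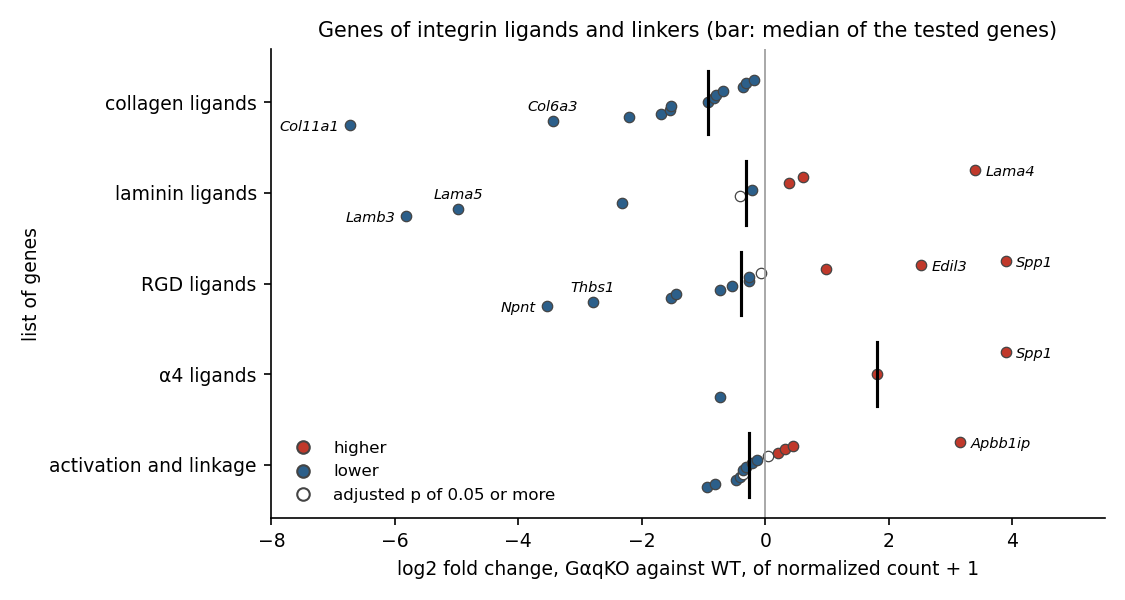
Log2 fold changes (libraries labelled GαqKO against WT, of normalized count + 1) of the tested genes in 4 ligand lists and the list of activation and linkage, each point a gene, with red for called higher, blue for called lower, white for an adjusted p of 0.05 or more, a black bar at the median and names beside the genes farthest from 0. All 13 tested collagen genes lie to the left of 0, and Spp1, which is in both the RGD and the α4 list, lies farthest to the right at 3.89.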

How the data were processed

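The 6 libraries were grouped by their genotype labels. The authors selected poly-A RNA, sequenced it as paired 150-base reads, aligned with Rbowtie2 to GRCm39, counted with featureCounts (Rsubread) on GENCODE release 32 and used DESeq2. Versions, strand setting and any filter on low counts are not given in the sources used here. The deposited values are a signal, taken here as gene counts divided by 1 size factor for each library. In 5 libraries 100.0% of nonzero values were whole multiples (tolerance 0.1) of a step, which gave back the reads. Those of GαqKO replicate 3 did not pass the check of the unit, and its values entered the fits and shares as deposited.

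Symbols, positions and exon lengths (all annotated exons merged) came from GENCODE release 39 of GRCm39, which matched 56310 identifiers (98.9%). Values were fitted as log2(normalized count + 1) with limma 3.58.1 (trend in the prior spread, no covariate) in R 4.3.3 with Benjamini-Hochberg adjustment over 14096 genes. On simulated data with 200 changed genes the fit recovered 195 and made 8 false calls among 13913 genes. The changed genes were drawn above a floor on the mean count that Itga2, Itga8 and Itga11 do not reach. The simulation also gave every gene the same spread beyond counting noise and changed far fewer genes than were called in the data. Its rates therefore do not cover the rare members. edgeR 4.0.16 and DESeq2 1.42.0 were run on the recovered reads of 5 libraries as alternatives, beside other scalings, filters and pseudocounts, the replicate block and each library left out. Class shares used exact permutation tests over libraries, two-sided, in scipy 1.17.1. Floors of 3 counts cover counting error only. The 4 within-group pairs with recovered reads differed by more than counting noise (chi-square per gene 2.44 to 5.5), which does not tell separate cultures from repeat preparations, and each library was counted as 1 sample.

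The members and lists were chosen with earlier results of these data known. By the rule, all 10 members, tested alpha and beta chains, and of each ligand or linkage list at most 2 rises and 2 falls past the fold with a mean of at least 100 over the 6 libraries were named. A gene that the rule selects is not reported here. Protein sequences were not used here.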

Additional observations from a re-analysis of the deposited data

How the results depend on the processing

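The falls of Itga5, Itga7 and Itgav and the rise of Itga6 kept their direction and call in all 16 alternatives, with log2 fold changes of -0.831 to -0.767, -5.6 to -4.99, -1.05 to -1.02 and 1.4 to 1.5. The calls of Itga2 and Itga8 held in the 15 alternatives that tested them. Both passed the main filter through the libraries labelled GαqKO alone, so they could hardly be tested there without differing. That their calls held is therefore a description. The calls of Itga11 and Itga3 did not hold in every alternative, as given beside them. With at least 10 normalized counts required in every library, 5 members were tested, 2 were higher, 1 of them past the fold. Over all genes 831 were higher and 765 lower past the fold, with 12054 genes tested in place of 14096. That filter leaves out any gene that is low in a single group. With exon length outside other genes only, which drops Itga2, the collagen class share differed by -0.111 percentage points. With each library left out in turn, 3 to 4 members were higher and 3 to 4 lower, 3 higher and 2 to 3 lower past the fold, over all genes 1426 to 1545 were higher and 1492 to 1603 lower past the fold, and the laminin, RGD and collagen shares differed by 14.8 to 16.2, -16.4 to -15 and 0.162 to 0.231 percentage points. The replicate numbers did not pair the libraries. Deviations of same-numbered libraries correlated at -0.0453, -0.148 and -0.0638, and no WT library correlated best with its own number. With the replicate block 4 members were higher and 4 lower, as without it, and over all genes 4324 were higher and 4638 lower. Depth limits Itga1, Itga2, Itga4, Itga8 and Itga11, each at 30 normalized counts or fewer in every library.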
